A study of Mus musculus with 12 samples.

Results

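The genes examined encode the proteins that carry the lipopolysaccharide (LPS) signal from its receptor into the cell: the co-receptors Cd14 and Ly96, the adaptors Myd88, Tirap, Ticam1 and Ticam2, the kinase family members Irak2, Irak3 and Irak4, and the ubiquitin ligase Traf6. These 10 genes were chosen by function, and every ATAC-seq peak that carried one of their names in the merged peak tables was taken. ATAC-seq cuts and tags DNA where chromatin is accessible, so that the number of sequenced tags in a peak measures how open that stretch of DNA was. The rule gave 49 of 60288 peaks in untreated mice and 38 of 54953 peaks in LPS-challenged mice, and each of the 10 genes had at least 1 peak in both tables. The mice were C57BL/6J wild-type animals irradiated with 950 cGy at 6 weeks of age and transplanted with wild-type bone marrow that carried the CD45.1 allele, so that CD45.1 cells came from the graft and CD45.2 cells were the host's own microglia. For each library, 30000 to 50000 Ly6C/G-, CD11b+, CD45lo cells of 1 population were sorted from brain, either without treatment (replicates 4, 5 and 6) or 12 h after LPS at 2.5 mg/kg (replicates 1, 2 and 3). This gave 4 groups, CD45.1 untreated, CD45.2 untreated, CD45.1 LPS and CD45.2 LPS, with 3 libraries each. The labels do not say that the replicates came from separate mice, so p-values measure the spread between these libraries. Both populations lived in irradiated brains, but the host microglia had themselves been irradiated whereas the graft cells were transferred afterwards, so cell origin and irradiation of the cells cannot be told apart. The chimeras were used 9 months after transplantation, although the labels allow 3.5 or 9 months.

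LPS is lifted from its carrier protein by CD14 and handed to the complex of TLR4 with MD-2, the protein encoded by Ly96. The activated receptor signals through a pair of adaptor modules. TIRAP brings MyD88 to the receptor at the plasma membrane, where MyD88 assembles with IRAK4 and IRAK2 and passes the signal to TRAF6, which activates NF-κB. TRAM (Ticam2) recruits TRIF (Ticam1) to the internalised receptor, a route that leads to type I interferon. IRAK-M, the product of Irak3, is found mainly in monocytes and macrophages and restrains the MyD88 arm. Microglia, the resident macrophages of the brain, use this machinery to respond to bacterial products.

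Sequences of 5 of the peaks named below are given first, as windows of 150 bases centred on the peak. The Cd14 peaks and the Irak3 promoter are not among them, and no regulatory function was measured. The first 4 windows are peaks that were more open in graft-derived cells, and the fifth opened after LPS in both populations. They were read from the mouse genome build mm9 on the plus strand. Capitals mark matches, on either strand, to the recognition letters of factors active in macrophages: NF-κB (GGANNTTCC), AP-1 (TGANTCA), PU.1 (GAGGAAGT), C/EBP (TTGCNNAA) and IRF (GAAANNGAA).
Irak3 intron 8 of 11, chr10:119600663-119600812, C/EBP and IRF letters: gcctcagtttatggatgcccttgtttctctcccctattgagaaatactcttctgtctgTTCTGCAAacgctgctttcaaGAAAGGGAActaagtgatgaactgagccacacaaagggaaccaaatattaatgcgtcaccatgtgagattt
Irak4 intron 10 of 11, chr15:94396407-94396556, AP-1 and PU.1 letters overlapping by 1 base: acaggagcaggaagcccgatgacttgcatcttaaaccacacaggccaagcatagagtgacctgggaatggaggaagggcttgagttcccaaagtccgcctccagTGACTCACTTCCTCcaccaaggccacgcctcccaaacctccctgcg
Irak3 intron 1 of 11, chr10:119630465-119630614, no match: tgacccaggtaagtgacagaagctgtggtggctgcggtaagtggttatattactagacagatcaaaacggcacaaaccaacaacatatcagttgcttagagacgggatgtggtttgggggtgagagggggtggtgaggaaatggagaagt
Ly96 distal element, chr1:16737489-16737638, intergenic, C/EBP letters: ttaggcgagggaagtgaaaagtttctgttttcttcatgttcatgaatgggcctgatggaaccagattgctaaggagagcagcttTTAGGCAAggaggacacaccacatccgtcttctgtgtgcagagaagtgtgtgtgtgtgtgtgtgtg
Irak2 intron 2 of 11, chr6:113605149-113605298, AP-1 letters: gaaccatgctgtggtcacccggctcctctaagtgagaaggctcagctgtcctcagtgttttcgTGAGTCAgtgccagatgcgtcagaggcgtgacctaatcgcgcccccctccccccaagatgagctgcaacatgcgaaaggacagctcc
A match is a run of letters and does not show that a factor was bound. Among all 60287 windows of the same length in the untreated table, the NF-κB letters occurred in 2.48%, AP-1 in 6.78%, PU.1 in 8.80%, C/EBP in 7.78% and IRF in 6.64%. Of the 49 member windows, 3 held the NF-κB letters, 3 AP-1, 3 PU.1, 8 C/EBP and 5 IRF. In the LPS table the AP-1 letters occurred in 11.8% of 54953 windows and in 4 of 38 member windows.

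Sequencing depth differed between the tables. The 6 untreated libraries held 8.39e+06 to 9.11e+06 tags and the 6 LPS libraries 2.97e+06 to 6.56e+06. The CD45.2 library of replicate 4 had 18.4% of its tags in the merged peaks, against 26.3 to 39.0% in the other 11 libraries. Untreated and LPS peaks were merged separately, so the effect of LPS cannot be told apart from the table, and the median peak was 132 bp wide in the untreated table and 167 bp in the LPS table. Of 5 graft-derived markers, 3 had a promoter peak in untreated mice, with summed levels of 190 to 213 normalised tags in CD45.1 libraries and 48.3 to 58.4 in CD45.2 libraries. Promoter peaks of 4 of 6 host microglia markers held 156 to 231 tags in CD45.1 libraries and 267 to 285 in CD45.2 libraries. Promoters of 3 of 5 general brain macrophage markers lay at 240 to 289 and 253 to 273 tags; Aif1 and Csf1r had no promoter peak. Neuron, T cell and B cell marker lists had a promoter peak for 0 of 4 genes each. In untreated mice, 1 of 4 genes each had a promoter peak in the astrocyte list (10.3 to 16.4 tags in CD45.1 and 24.4 to 53.2 in CD45.2), the endothelial list (12.5 to 37.8 and 48.4 to 66.4), the oligodendrocyte list (37.9 to 43.8 and 31.0 to 48.3) and the neutrophil list (41.9 to 49.4 and 35.99 to 42.6), while Gfap, Aqp4, Cldn5, Mog and S100a8 had none. After LPS, promoter peaks of 4 of 5 graft-derived markers held 66.5 to 98.5 tags in CD45.1 and 27.6 to 36.8 in CD45.2 libraries. Those of 4 of 6 host microglia markers overlapped, at 64.2 to 93.9 and 84.1 to 110. The neutrophil list then had a promoter peak for 2 of 4 genes, S100a8 included, at 20.2 to 29.2 tags in CD45.1 and 31.5 to 50.5 in CD45.2 libraries. The part of these levels in the results was not tested. In pooled cells, fewer cells of a type with an open site and less openness per cell cannot be told apart.

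In untreated mice the loci of Irak3, Irak4 and Cd14 were more accessible in graft-derived cells than in host microglia. The tags of all peaks of a gene were summed and scaled by DESeq2 size factors, called normalised tags here. Irak3 differed by about 2-fold and Cd14 by less. Irak4 differed by about 2-fold over the peaks that carry its name, which leave out its own promoter, and by 0.29 on the log2 scale (adjusted p = 0.143) with that promoter, while Ly96, the 4 adaptors, Irak2 and Traf6 did not pass the test. Thus 3 of the 10 genes were higher in CD45.1 cells at an adjusted p under 0.05 and 0 were higher in CD45.2 cells, against 7.35% and 7.46% of the 16174 genes tested. With libraries scaled to their total tags instead, the log2 differences of Cd14, Irak3 and Irak4 were 0.49, 0.99 and 1.06 but their adjusted p-values 1.00, 0.0682 and 0.0738, so that 0 of the 10 passed. Both populations had peaks at each of the 10 genes, with sums of normalised tags well above 0 in all 6 libraries.

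**Figure D1:**
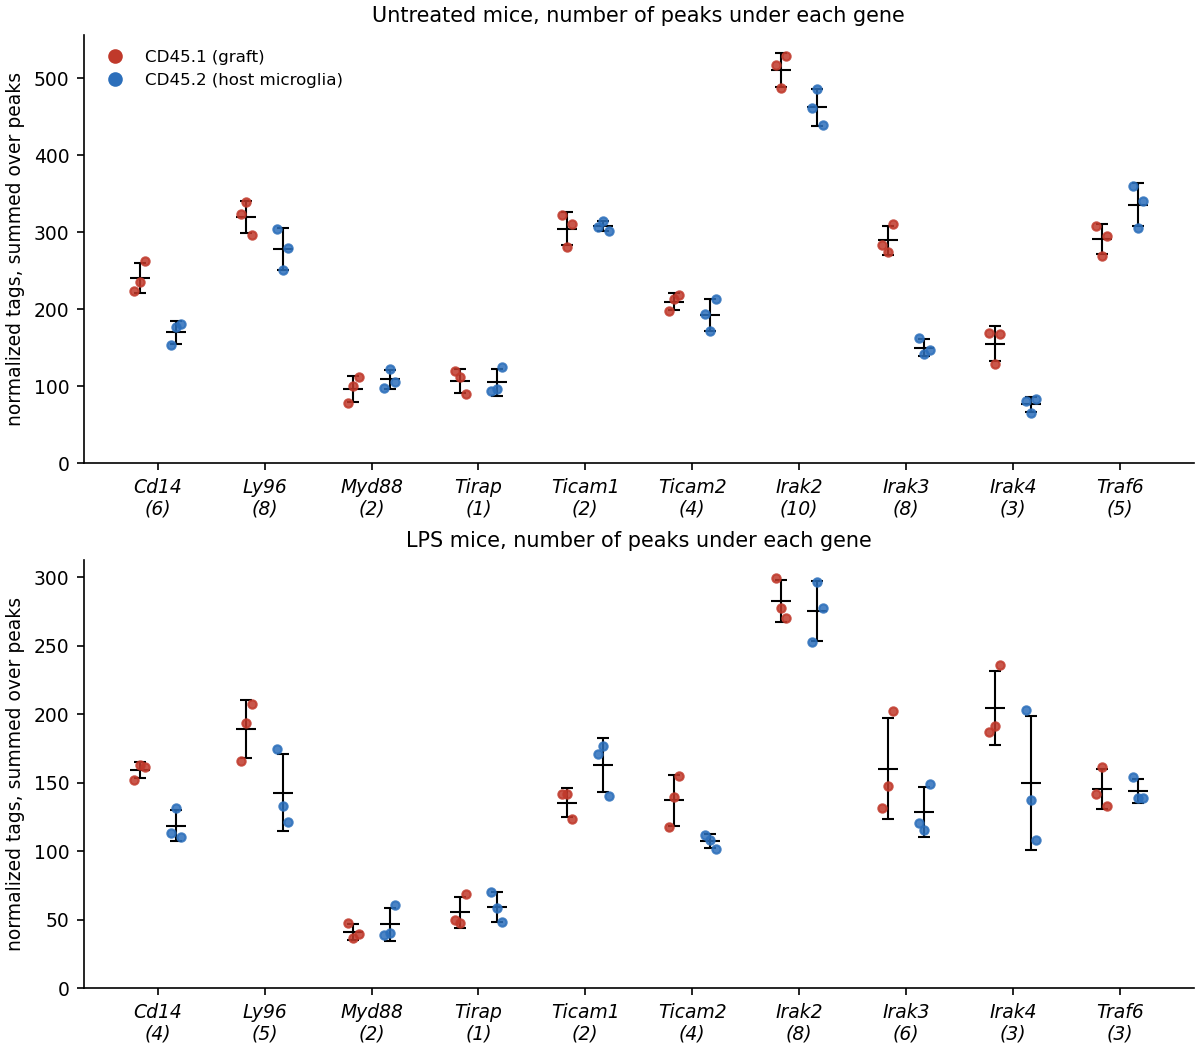
Normalised tags summed over the peaks of each member gene, in each library, with the mean and SD of 3 libraries per group in black and the number of peaks under each gene; untreated mice and LPS-challenged mice are scaled separately, and the vertical axes start at 0. In untreated mice Irak3 lies at 274 to 310 tags in CD45.1 libraries and 141 to 162 in CD45.2 libraries, with no overlap.

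Cd14 encodes the membrane-anchored protein that picks up LPS, and its 6 untreated peaks did not move together. Its sums were 223, 236 and 262 normalised tags in the CD45.1 libraries of replicates 4, 5 and 6 and 153, 177 and 180 in the CD45.2 libraries. Every graft-derived library thus lay above every host library, with a log2 difference of 0.49 ± 0.15 (SE, n = 3 libraries per group, adjusted p = 0.00944). Without the CD45.2 library of replicate 4 the adjusted p was 0.0772, and the call was also lost without the CD45.1 library of replicate 6 (0.0744) or the CD45.2 library of replicate 5 (0.0541).

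The largest difference at Cd14 lay in an intergenic peak 13.3 kb downstream of its start (chr18:36873140-36873244). It held 30.3, 30.1 and 39.8 normalised tags in CD45.1 libraries and 0, 1.55 and 1.22 in CD45.2 libraries. In raw tags the host values were 0, 2 and 1.5, so the site was at or near background in host microglia. The log2 difference was 4.71 ± 0.83 (SE, adjusted p = 6.94e-07), and the ratio of group sums was 29.6, with a 95% counting interval of 9.81 to 96.9 that covers counting error only. The peak was in the individual peak lists of 3 of 3 CD45.1 libraries and 0 of 3 CD45.2 libraries, both without treatment and after LPS. These lists come from the same libraries as the test and are not separate support. In untreated mice the peak had more than 10 tags, the limit for testing, only in CD45.1 libraries. The same holds for the Ly96 distal element and the Irak3 intron 1 peak.

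Nearer to the gene, the Cd14 promoter peak (chr18:36886331-36886489) had 73.2, 68.0 and 93.1 normalised tags in CD45.1 libraries against 41.0, 34.8 and 39.4 in CD45.2 libraries. That log2 difference was 1.04 ± 0.26 (SE, adjusted p = 0.00115, and 0.0661 with scaling to total tags). A peak at -1004 bp from the start was higher in CD45.1 cells too, at 41.0, 60.7 and 55.0 against 12.3, 22.4 and 19.9 (log2 difference 1.45 ± 0.34, adjusted p = 0.000427). In the opposite direction, an intergenic peak 10.9 kb downstream was more open in host microglia, with 21.9, 26.0 and 31.0 normalised tags in CD45.1 libraries and 36.9, 57.3 and 64.5 in CD45.2 libraries. Its log2 difference was -1.05 ± 0.32 (adjusted p = 0.0106, and 0.152 with total tags), and it was the 1 member peak of 49 that was higher in host microglia at an adjusted p under 0.05, against 6.32% of the 59170 peaks tested. The remaining Cd14 peaks, in exon 2 and 6.7 kb downstream, had log2 differences of 0.76 and -0.42 with adjusted p-values of 0.42 and 0.447.

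Ly96 encodes MD-2, the LPS-binding partner of TLR4. Its summed level differed little, with 323, 339 and 297 normalised tags in CD45.1 libraries and 305, 251 and 280 in CD45.2 libraries, and a log2 difference of 0.21 whose 95% interval ran from -0.04 to 0.47 (adjusted p = 0.344). Under this sum lay 2 peaks that did differ. A distal intergenic element 59.0 kb downstream of the start (chr1:16737490-16737636), shown above, held 14.9, 20.99 and 37.0 tags in graft-derived cells and 1.64, 1.94 and 1.62 in host microglia. Its groups were far apart, with a log2 difference of 3.92 ± 0.80 (SE, adjusted p = 3.33e-05) and a ratio of group sums of 13.5 (95% counting interval 5.41 to 34.8). Like the distal Cd14 peak it was listed in 3 of 3 CD45.1 and 0 of 3 CD45.2 libraries under both conditions. The promoter peak, at -74 bp from the start, held 65.3, 74.8 and 75.1 tags against 41.8, 36.4 and 36.5, a log2 difference of 0.92 ± 0.26 (adjusted p = 0.00485, and 0.122 with total tags). The most accessible Ly96 peak, 110.0 kb downstream, averaged 115.6 tags in CD45.1 cells and 116.1 in CD45.2 cells (log2 difference 0.03, 95% interval -0.36 to 0.42). Both distal peaks lie between genes, and nearest-start annotation, not a measured contact, ties them to Ly96.

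The 4 adaptors of the pathway showed no peak or sum that passed the test in untreated mice. Myd88, the shared adaptor of most Toll-like receptors, had 96.4 ± 17.1 normalised tags (SD, n = 3) in CD45.1 cells and 108.7 ± 12.3 in CD45.2 cells, a log2 difference of -0.19 (95% interval -0.58 to 0.21). Tirap, which bridges MyD88 to the receptor, differed by 0.01 on the log2 scale (-0.39 to 0.41) and had its promoter as its single peak. For Ticam1, the TRIF gene, the difference was -0.01 (-0.26 to 0.23). Ticam2, the TRAM gene, differed by 0.12 (-0.18 to 0.41), with the lowest p in an intron peak 1.5 kb from the start (log2 difference 0.54 ± 0.22, adjusted p = 0.0841). The strongest peak of each adaptor was its promoter, with mean normalised tags of 52.0 in CD45.1 and 64.5 in CD45.2 cells at Myd88, 107.1 and 103.3 at Tirap, 199.9 and 213.3 at Ticam1, and 93.1 and 108.5 at Ticam2. Log2 differences at these promoters lay between -0.30 and 0.04. Over the 4 adaptor sums the 95% intervals thus reached no farther than -0.58 and 0.41, and smaller differences could not be resolved at this depth. Traf6, the ubiquitin ligase downstream of both arms, lay at -0.20 (-0.45 to 0.05); its peaks 37.4 and 54.5 kb downstream fall inside the neighbouring gene Prr5l, and its promoter averaged 120.1 and 139.3 tags (log2 -0.18, 95% interval -0.55 to 0.18).

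Irak3, which encodes the inhibitory family member IRAK-M, had the lowest adjusted p among the 10 sums. Its 8 peaks summed to 283, 274 and 310 normalised tags in CD45.1 libraries and 162, 141 and 147 in CD45.2 libraries, a log2 difference of 0.95 ± 0.14 (SE, adjusted p = 1.44e-09). Much of this lay in an element in intron 8 of 11, 37.9 kb from the start (chr10:119600650-119600824). It held 119, 125 and 146 tags in graft-derived cells and 48.3, 30.2 and 34.9 in host microglia, a 3.54-fold difference (log2 1.82 ± 0.24, adjusted p = 5.29e-12), and was in the peak lists of all 6 untreated libraries. A second element in intron 1 (chr10:119630466-119630613) was nearly closed in the host, at 24.7, 33.3 and 32.1 against 0, 0 and 2.44 normalised tags. The host values rest on 3 raw tags, all from replicate 6, and the log2 difference of 4.98 ± 0.94 (adjusted p = 4.66e-06) went to 7.17 without the CD45.2 library of replicate 6. The ratio of sums was 31.3 (95% counting interval 10.3 to 154). The promoter peak, which covers the first exons of both Irak3 and the divergent gene Tmbim4, averaged 37.8 and 27.9 tags with overlapping groups (log2 difference 0.53 ± 0.34, adjusted p = 0.379).

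Irak4, the kinase that starts signalling from the MyD88 complex, resembled Irak3 in having an intronic element open mainly in graft-derived cells. This peak in intron 10 of 11, 22.4 kb from the start (chr15:94396404-94396558), held 68.1, 54.3 and 86.6 normalised tags in CD45.1 libraries and 10.7, 6.58 and 9.33 in CD45.2 libraries. The 8.34-fold difference (log2 3.06 ± 0.40, adjusted p = 3.73e-12) left the groups far apart. The sums were 169, 129 and 168 against 81.0, 64.8 and 82.7 (log2 1.03 ± 0.20, adjusted p = 5.18e-06). However, the promoter shared with the divergent gene Pus7l carried the name Pus7l in the untreated table and Irak4 in the LPS table. An Irak4 intron element listed in every library, 13.97 kb from the start, averaged 57.5 and 52.5 tags (log2 0.15, 95% interval -0.37 to 0.68). When the promoter peak was counted under Irak4, a choice made after seeing the data, the untreated difference was 0.29 (adjusted p = 0.143). Without that reassignment, the fit on the strongest peak of each gene used this same 13.97 kb intron element. It gave 0.12 (adjusted p = 0.957) and says nothing about the promoter. At Irak2, a kinase that helps to sustain the response, the sum differed by 0.14 (95% interval -0.06 to 0.35), and the promoter, its strongest peak, averaged 132.8 and 109.9 tags (log2 0.29 ± 0.19, adjusted p = 0.384). Of its 10 peaks, 1 passed, in intron 2 (22.1 kb), with 26.6, 30.6 and 43.6 tags in CD45.1 libraries and 11.5, 17.4 and 13.8 in CD45.2 libraries. That log2 difference of 1.21 ± 0.41 had an adjusted p of 0.0229, and of 0.158 with total tags.

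Counted over the untreated members, 4 of 49 peaks (8.16%) met the 4-fold rule (adjusted p under 0.01 and over 4-fold). They were the elements named above at Cd14, Ly96, Irak3 intron 1 and Irak4, each higher in CD45.1 cells. Of all 59170 peaks, 3.78% met the rule in that direction. At an adjusted p under 0.05, 9 of 49 (18.4%) were higher in CD45.1 cells, against 8.54% of all peaks. The median log2 difference of the 49 was 0.16, with 32 above 0, and that of all peaks 0.00. Of the 10 promoter peaks 2 had an adjusted p under 0.05 in either direction, and of the 39 other peaks 8. Among all peaks 8.54% passed higher in CD45.1 cells and 6.32% higher in CD45.2 cells, with promoters not counted apart. Log2 differences ran from -0.30 to 1.04 at the promoter peaks and from -1.10 to 4.98 at the others.

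**Figure D2:**
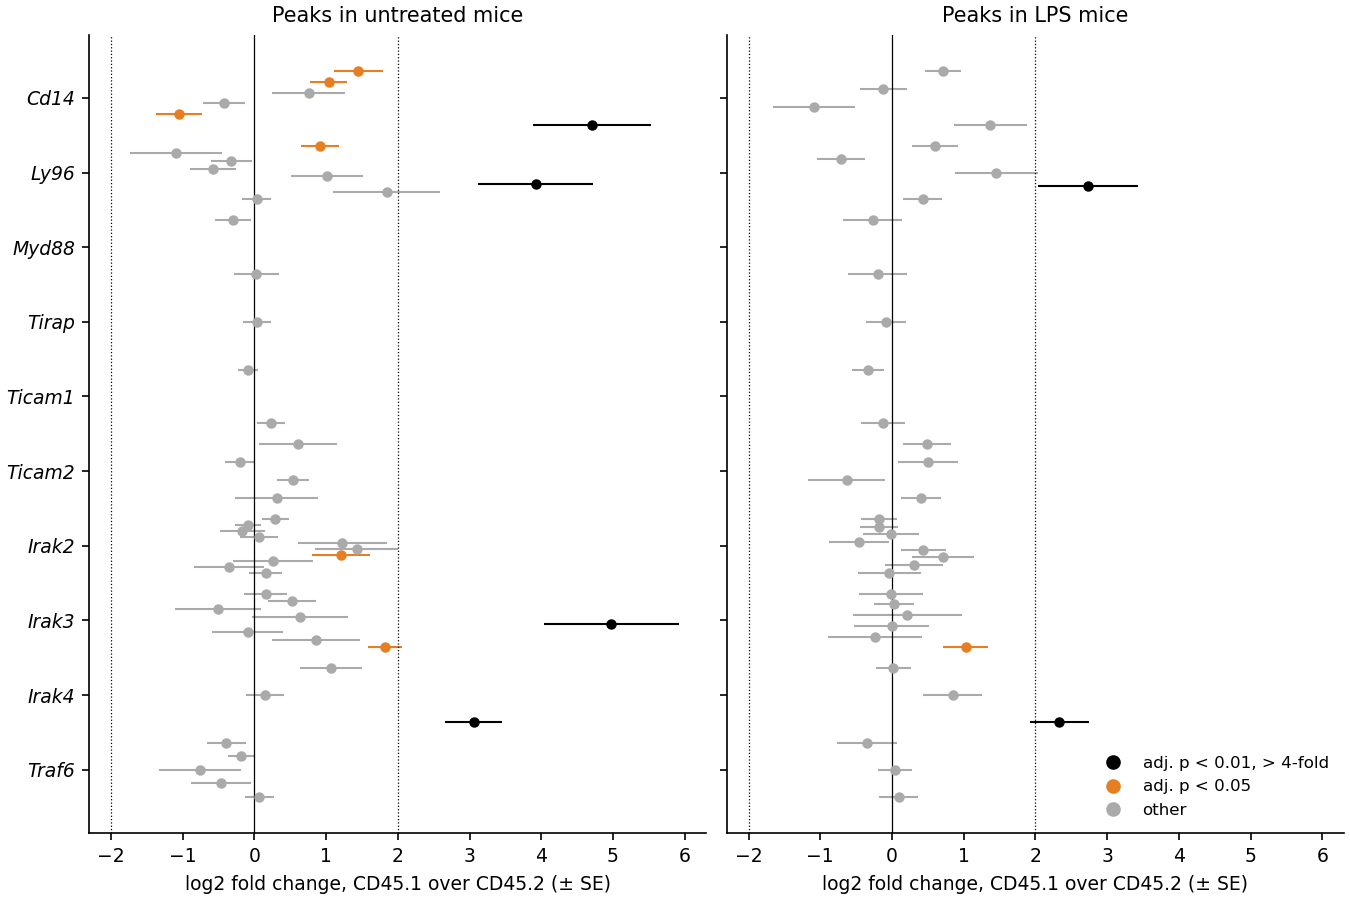
Log2 fold change of CD45.1 over CD45.2 cells (horizontal axis) for every member peak, by gene, in untreated mice and after LPS; points are DESeq2 estimates with their SE as bars, in black past the 4-fold rule, in orange at an adjusted p under 0.05 and in grey otherwise, and dotted lines mark 4-fold. The farthest untreated points are at Irak3 (4.98), Cd14 (4.71), Ly96 (3.92) and Irak4 (3.06).

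**Figure D3:**
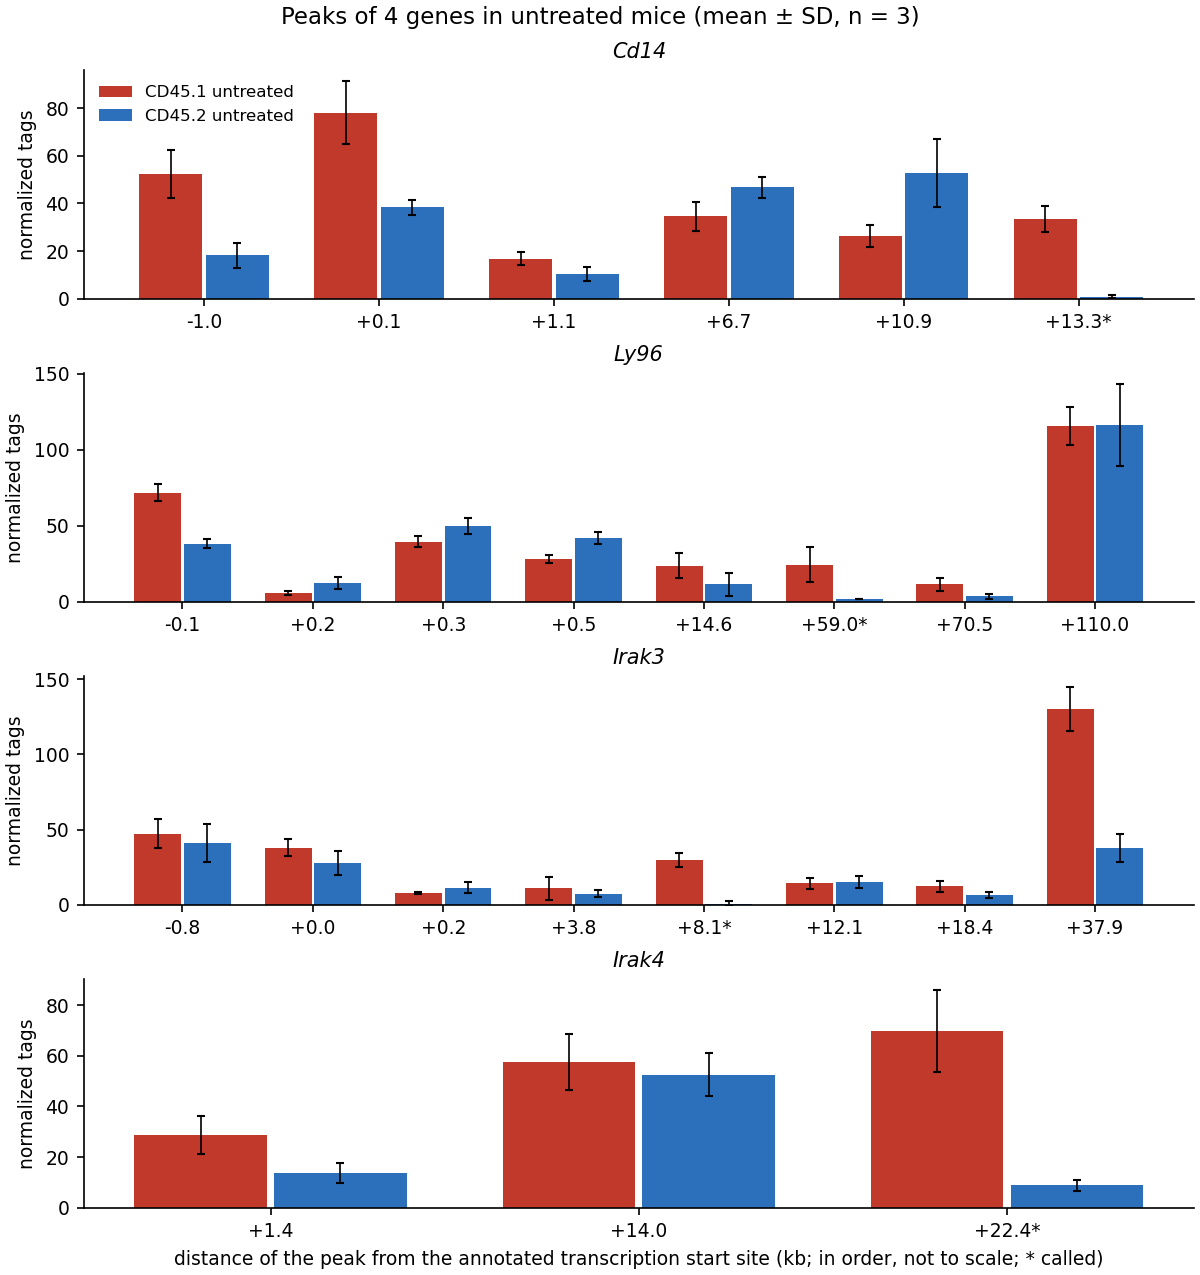
Mean normalised tags (bars, with SD, n = 3) of each peak of Cd14, Ly96, Irak3 and Irak4 in untreated CD45.1 and CD45.2 cells, in order of distance from the annotated start in kb, which is not drawn to scale; asterisks mark peaks past the 4-fold rule. The Irak3 peak 37.9 kb from the start and the Irak4 peak 22.4 kb from the start stand apart between the populations, whereas the Ly96 peak 110.0 kb away has the same height in both.

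**Figure D4:**
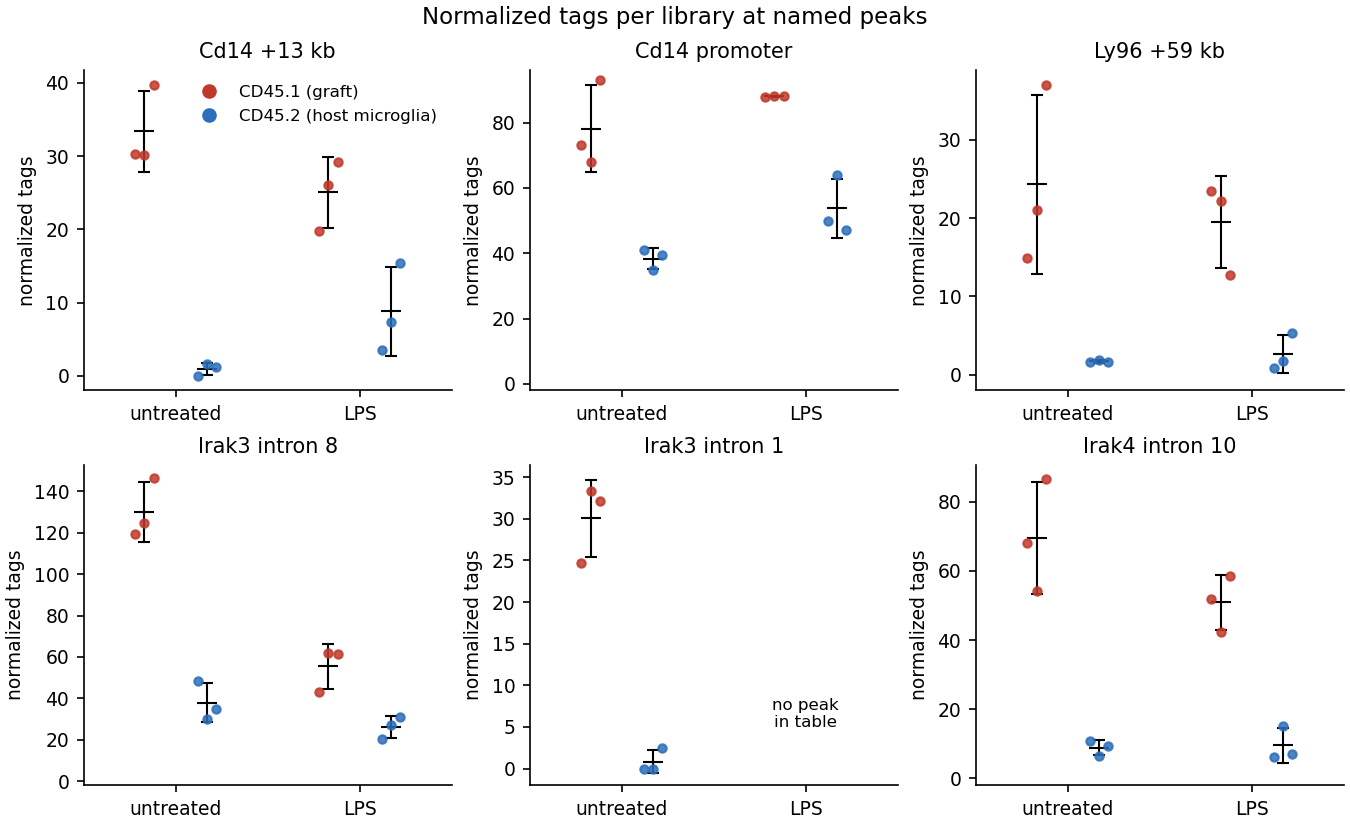
Normalised tags in each of the 12 libraries for the named peaks, by group, with group means and SDs (n = 3); untreated and LPS libraries are scaled within their own table. At the Irak4 intron 10 peak CD45.1 libraries lie at 54.3 to 86.6 tags untreated and 42.4 to 58.5 after LPS, above every CD45.2 library.

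After LPS, fewer member differences passed, from shallower libraries. The Irak4 intron 10 element kept its large separation, at 51.8, 42.4 and 58.5 normalised tags in CD45.1 libraries and 6.13, 15.3 and 7.12 in CD45.2 libraries (log2 difference 2.33 ± 0.41, adjusted p = 2.48e-06). The Ly96 distal element held 23.4, 22.2 and 12.7 tags against 0.876, 1.74 and 5.34 (log2 2.73 ± 0.70, adjusted p = 0.00324). In raw tags its host values were 0.5, 2 and 9. After LPS too, this element had more than 10 tags, the limit for testing, only in CD45.1 libraries. The Ly96 call rested on single libraries. Without the CD45.1 library of replicate 1 or 2 its adjusted p was 0.063 and 0.0501. Without the CD45.2 library of replicate 2 the adjusted p was 0.07. The Ly96 element met the 4-fold rule in 1 of the 6 fits that each left out a library. That fit left out the CD45.1 library of replicate 3. Irak3 intron 8 was also higher in graft-derived cells, at 42.9, 62.0 and 61.3 against 20.1, 27.0 and 30.9 (log2 1.03 ± 0.32, adjusted p = 0.0253), a call lost in 5 of the 6 fits that each left out a library. Thus 2 of 38 peaks met the 4-fold rule, both higher in CD45.1 cells, against 1.78% of 49180 peaks in that direction. At an adjusted p under 0.05, 3 of 38 were higher in CD45.1 cells, against 4.08% of all peaks in that direction. The median log2 difference of the 38 was 0.02, with 20 above 0, beside -0.01 over all peaks.

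At the co-receptors, the Cd14 promoter after LPS had 87.7, 88.1 and 88.2 tags in CD45.1 libraries and 49.9, 64.1 and 47.2 in CD45.2 libraries, groups that did not overlap, although the adjusted p was 0.0549 (log2 0.71 ± 0.25). The Cd14 peak 13.2 kb downstream, closed in untreated host microglia, now held 3.50, 7.41 and 15.4 tags there, against 19.8, 26.1 and 29.3 in graft-derived cells (log2 1.37 ± 0.51, adjusted p = 0.0865). The Irak3 intron 1 element and the Cd14 peak at -1004 bp had no peak in the LPS table, in either population. By summed tags 0 of 10 genes passed DESeq2 or edgeR, with 3 and 4 at an unadjusted p under 0.05, against 7.07% of 15722 genes passing DESeq2 in either direction. The sums of Cd14, Ly96 and Irak4 differed by 0.42, 0.43 and 0.48 on the log2 scale, with adjusted p-values of 0.204, 0.219 and 0.216. The other 7 sums lay between -0.26 at Ticam1 and 0.36 at Ticam2, with Myd88 at -0.20, Tirap at -0.06, Traf6 at 0.02, Irak2 at 0.03 and Irak3 at 0.31. With the shared promoter counted under Pus7l, as in untreated mice, the Irak4 difference was 1.64 (adjusted p = 3.22e-06).

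The response to LPS was followed on 30 member peaks that overlapped by at least 50% in both directions between the tables, with all 12 libraries on a joint scale. Openness rose at the Cd14 and Irak3 promoters and in an Irak2 intron in both populations. In CD45.1 cells 4 of 30 peaks (13.3%) rose by more than 2-fold at an adjusted p under 0.05, against 6.78% of 39235 peaks. In CD45.2 cells 5 of 30 (16.7%) rose by that rule, against 7.69%. By the same rule 0 fell in either, but a peak found in only 1 condition could not be counted. Of the 49 untreated member peaks 14 had no overlapping LPS peak, and of the 38 LPS member peaks 2 had no overlapping untreated peak. The LPS libraries were the shallower ones, and the share of falls over all peaks was not taken. The median log2 change of the members was 0.33 in CD45.1 cells, with 24 of 30 above 0, and 0.32 in CD45.2 cells, with 25 of 30 above 0, beside -0.00 and -0.01 over all matched peaks. Peak width moved with it: 27 of the 30 peaks were wider in the LPS table, by a median of 1.29-fold against 1.22-fold over all peaks.

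The Cd14 promoter went from 48.9, 45.6 and 61.3 tags to 127, 131 and 131 in graft-derived cells and from 27.2, 23.7 and 26.6 to 71.9, 92.9 and 69.6 in host microglia. Its log2 changes were 1.33 ± 0.21 (SE, adjusted p = 8.59e-09) and 1.62 ± 0.24 (adjusted p = 9.32e-10). The LPS interval was 309 bp against 159 bp, and with width as an offset the changes were 0.64 (adjusted p = 0.0149) and 0.93 (adjusted p = 0.00158). A second Cd14 peak, 6.7 kb downstream, rose by 1.22 ± 0.28 on the log2 scale in CD45.1 cells (adjusted p = 0.000252) and by 0.87 ± 0.27 in CD45.2 cells (adjusted p = 0.0105). The CD45.2 call was lost with total tags (0.188) and without untreated replicate 6 (0.0755) or LPS replicate 1 (0.0662) or 2 (0.0893). At Ly96 the promoter and an intron 1 peak rose in host microglia, by 0.79 and 0.88 (adjusted p = 0.025 and 0.0078), and had values of 0.52 and 0.54 in CD45.1 cells (adjusted p = 0.108 and 0.173). Both host calls were lost with total tags (0.259 and 0.173). The promoter call was also lost with the width offset (0.0594) and without CD45.2 untreated replicate 5 (0.108) or 6 (0.102) or LPS replicate 1 (0.108) or 3 (0.0797), and the intron call without untreated replicate 6 (0.0604) or LPS replicate 1 (0.0579) or 2 (0.0586).

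The Irak3 promoter rose from 28.9, 25.4 and 21.1 to 69.7, 65.1 and 86.0 tags in graft-derived cells and from 24.5, 16.1 and 15.7 to 82.0, 63.8 and 74.8 in host microglia. All 6 LPS libraries lay above all 6 untreated libraries. The log2 changes were 1.56 ± 0.26 (adjusted p = 9.26e-08) and 2.04 ± 0.27 (adjusted p = 1.21e-11), at nearly equal widths of 211 and 216 bp. Because the peak covers the starts of both Irak3 and Tmbim4, it cannot be assigned to either gene. In Irak2, the intron 2 peak 16.8 kb from the start, shown above with its AP-1 letters, rose from 10.3, 6.43 and 12.5 to 43.4, 34.0 and 41.3 tags in CD45.1 cells (log2 2.08 ± 0.41, adjusted p = 1.34e-05). In CD45.2 cells it rose from 2.72, 2.90 and 6.32 to 23.96, 12.6 and 34.1 (log2 2.53 ± 0.49, adjusted p = 1.00e-05). After LPS it was in the peak lists of 3 of 3 CD45.1 libraries but 1 of 3 CD45.2 libraries. Its interval grew from 105 to 157 bp, and with width as an offset the changes were 1.77 and 2.22. The Irak2 peak at 22.1 kb rose in host microglia by 1.60 ± 0.37 (adjusted p = 0.000394) and had a value of 0.73 in CD45.1 cells (adjusted p = 0.0989), while the peak at 15.9 kb rose in CD45.1 cells by 0.71 ± 0.25 (adjusted p = 0.0312) and had a value of 0.30 in CD45.2 cells. That last call was lost with total tags (0.165), with the width offset (0.074) and without each CD45.1 library other than untreated replicate 6, at adjusted p-values of 0.0657 to 0.150. Irak4 intron 10 rose in host microglia by 1.38 ± 0.44 (adjusted p = 0.016), and had a value of 0.70 in CD45.1 cells (adjusted p = 0.0545), which passed with the width offset (0.82, adjusted p = 0.0198). The host call was lost with total tags (1.27, adjusted p = 0.0982) and without LPS replicate 2 (0.88, adjusted p = 0.324) or untreated replicate 5 (1.17, adjusted p = 0.131).

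**Figure D5:**
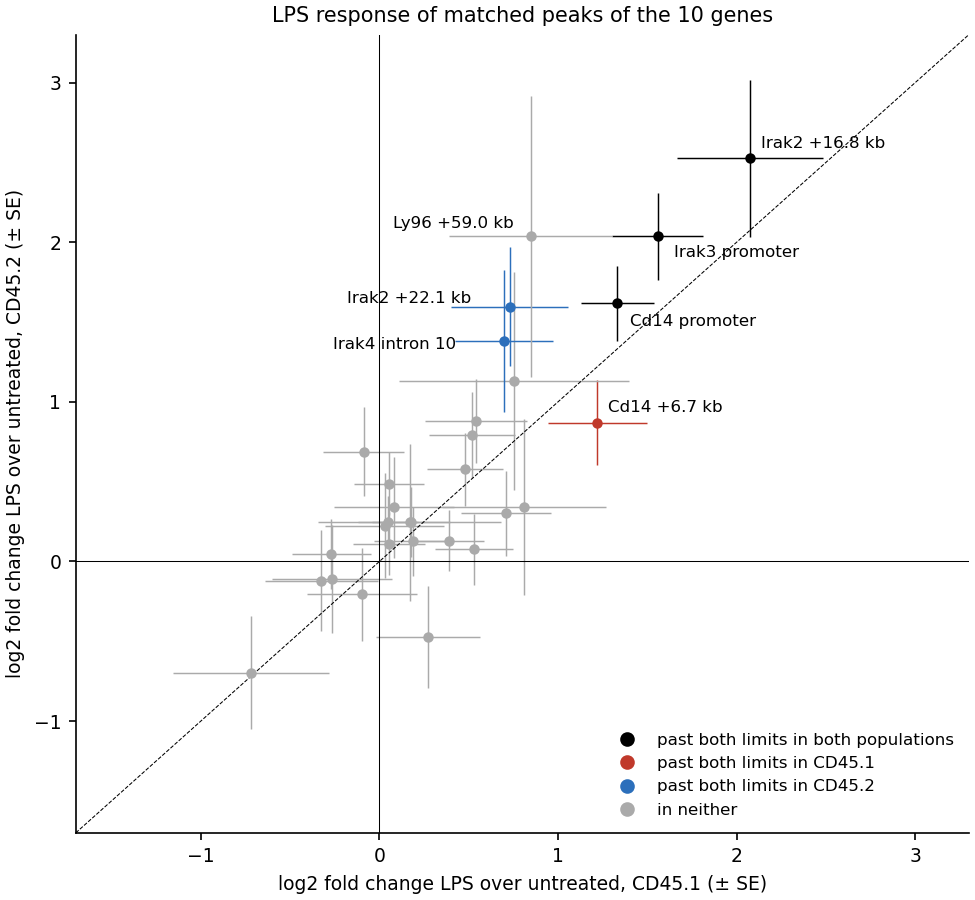
Log2 change after LPS of each of the 30 matched member peaks in CD45.2 cells (vertical axis) against CD45.1 cells (horizontal axis), as DESeq2 estimates with their SE as bars and a dashed line of equal change; colours show in which population a peak rose by more than 2-fold at an adjusted p under 0.05. The Irak2 peak 16.8 kb from the start (2.08 and 2.53), the Irak3 promoter (1.56 and 2.04) and the Cd14 promoter (1.33 and 1.62) lie farthest along the line.

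Summed over matched peaks, 2 of 10 genes rose after LPS in CD45.1 cells, against 15.6% of 14676 genes, and 4 of 10 in CD45.2 cells, against 10.4%. Cd14 rose in both, by 1.05 ± 0.16 (adjusted p = 4.70e-09) and 0.72 ± 0.16 (adjusted p = 0.00028). Its sum rested on 3 matched peaks and left out, among others, those at -1004 bp and 13.3 kb downstream. The Cd14 sum therefore does not cover the whole locus. Ly96 rose by 0.55 ± 0.15 (adjusted p = 0.00262) and 0.45 ± 0.16 (adjusted p = 0.0357), but with width as an offset by 0.33 and 0.22, with adjusted p-values of 0.098 and 0.41. The Irak3 sum rose in CD45.2 cells by 0.86 ± 0.17 (adjusted p = 1.49e-05), with 0.33 in CD45.1 cells (adjusted p = 0.091). In CD45.2 cells its mean went from 89.2 to 160.6 tags. It includes the promoter peak shared with Tmbim4, whose mean went from 18.7 to 73.5 there, so the rise cannot be assigned to Irak3 alone. With the strongest peak alone the changes were 0.62 in CD45.2 (adjusted p = 0.105) and -0.14 in CD45.1 cells (adjusted p = 0.688). In CD45.1 cells Irak3 passed with the width offset (0.53, adjusted p = 0.00527), at 80% overlap (0.58, adjusted p = 0.0111) and without LPS replicate 1 (0.45, adjusted p = 0.0358). Irak2 rose in CD45.2 cells by 0.35 ± 0.11 (adjusted p = 0.0191, and 0.16 with the width offset), with 0.25 in CD45.1 cells (adjusted p = 0.0814). In DESeq2 the adaptors, Traf6 and Irak4 did not pass in either population. Their log2 changes lay between -0.11 and 0.54, with the highest in CD45.2 cells at Ticam2 (adjusted p = 0.083). The sums of Myd88, Ticam2 and Irak4 left out their promoters and rested on 1, 1 and 2 matched peaks, so they do not cover the whole loci. At 80% overlap Ticam2 passed in CD45.1 (0.57, adjusted p = 0.0335) and CD45.2 cells (0.68, adjusted p = 0.0274), and Irak4 in CD45.1 cells (0.62, adjusted p = 0.0208). In edgeR, Ticam2 passed in CD45.1 (0.45, adjusted p = 0.0435) and CD45.2 cells (0.53, adjusted p = 0.0444), and Irak4 in CD45.1 cells (0.50, adjusted p = 0.0307). Irak4 in CD45.1 cells also passed with the width offset (0.57, adjusted p = 0.0306). With total tags Cd14 alone passed in CD45.1 cells and 0 genes in CD45.2 cells. Without single libraries the Ly96 call in CD45.2 cells was lost in 5 fits and that of Irak2 in 5.

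Whether the populations responded differently was tested as the interaction of population and LPS. It passed at 0 of 30 member peaks in DESeq2 and in edgeR (1 and 3 at an unadjusted p under 0.05), against 0.245% of 39235 peaks, and at 0 of 10 genes (1 and 2 unadjusted), against 0.191% of genes. The adjusted p was undefined at 4 of the 30 peaks. The genes' lowest adjusted p was 0.719, and the 95% interval at Irak3, -0.97 to -0.07 on the log2 scale, was the 1 that excluded 0 before adjustment. Some pairs overlapped by less than 50% and were compared in an alternative with 1 bp of overlap, chosen after seeing the data. There the Cd14 peak 13.3 kb downstream rose in host microglia by 4.03 ± 0.83 (adjusted p = 3.01e-05) and had a value of 0.70 in graft-derived cells (adjusted p = 0.181), and the interaction was -3.33 ± 0.92 (adjusted p = 0.0738), from intervals of 105 and 167 bp. A Ticam2 peak at -1870 bp from the start rose in both, by 2.76 (adjusted p = 2.70e-13) and 2.82 (adjusted p = 3.40e-11), while its interval widened from 105 to 183 bp. The Ticam2 promoter fell by 0.96 and 1.71 on the log2 scale (adjusted p = 0.00316 and 6.91e-08), from an interval of 302 bp to one of 163 bp, since the LPS table divides that promoter into 2 peaks.

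Other genes of the Toll-like receptor pathway gave the setting for these values. Of 42 such genes, 41 had a peak in untreated mice, and 2 were higher in CD45.1 cells, 1 was higher in CD45.2 cells and 38 did not pass, shares of 4.88% and 2.44% against 7.35% and 7.46% of all genes. Tlr2, the receptor for bacterial lipoproteins, had 945 ± 88.0 normalised tags (SD, n = 3) in graft-derived cells and 594 ± 20.0 in host microglia (log2 0.67 ± 0.10, adjusted p = 1.01e-09), although its strongest peak alone differed by -0.014. Nfkbiz, an inducible NF-κB cofactor, had 1249 ± 60.8 and 930 ± 89.3 (log2 0.43 ± 0.09, adjusted p = 9.43e-05), with 0.036 at its strongest peak alone (adjusted p = 0.982). Tlr3, the double-stranded RNA receptor that signals through TRIF, was lower in graft-derived cells, at 188 ± 43.0 and 297 ± 5.80 (log2 -0.66 ± 0.16, adjusted p = 0.000436). The median log2 difference of the 41 genes was 0.01, beside -0.00 over all genes. With scaling to total tags 0 of the 41 passed. After LPS, 1 of 40 genes (2.5%) passed, against 7.07% of all genes. Tlr4, the LPS receptor itself, had 330 ± 46.8 tags in graft-derived cells and 212 ± 52.7 in host microglia (log2 0.66 ± 0.20, adjusted p = 0.0168). It was lost in 4 of the 6 fits that each left out a library. In untreated mice Tlr4 differed by 0.09 ± 0.13 (adjusted p = 0.809).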

How the data were processed

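Open chromatin was measured by ATAC-seq in 12 libraries, 3 per group. Per the study's methods and the submitters' processing notes, the authors used bcl2fastq 2.17.1.14, Bowtie2, Picard 1.108 and HOMER on mm9. They deposited 1 merged peak table per condition, holding HOMER tags in steps of 0.5, treated here as estimated counts and rounded for the tests, and a peak list with HOMER scores for each library, used here only to see which libraries listed a peak. How duplicates and the transposase offset were treated is not given in the sources used here, and replicates were not pooled.

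Peaks with more than 10 tags in at least 1 library were tested across the whole table with DESeq2 1.42.0 (Wald test, Benjamini-Hochberg adjustment, R 4.3.3), as CD45.1 against CD45.2 within each table. The call required a difference of over 4-fold with an adjusted p below 0.01, and a second count used 0.05 with no fold limit. Peak tags were summed per gene. For LPS against untreated mice and the interaction, peaks with at least 50% reciprocal overlap were fitted over the 12 libraries. Gene sums and the interaction used an adjusted p under 0.05. All p-values printed in the text are two-sided, from DESeq2 or, where named, from edgeR 4.0.16 (quasi-likelihood test, TMM). The fits were also run on simulated data, with changes planted only in features with a mean count of at least 20. That run does not cover the called Cd14, Ly96 and Irak3 intron 1 peaks, which lie below this mean. Intervals are 95% intervals.

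CD45.1 and CD45.2 libraries share replicate numbers within a table, but nothing ties a number to 1 mouse. The fit with the number as a replicate block was an alternative, as were edgeR, scaling to total tags, other filters, overlaps and widths, and leaving out each library. LPS and untreated groups share no number, so that comparison cannot be blocked.

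The members, marker and pathway lists and tests were chosen with earlier results of these data known. Named were the 10 genes, every called member peak, the strongest peak of each gene, the 10 peaks of smallest adjusted p under 0.05 per comparison and pathway genes at an adjusted p under 0.05. Sequences were read from the mm9 (NCBIM37) genome by coordinates.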

Additional observations from a re-analysis of the deposited data

How the results depend on the processing

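Libraries with 3 per group and a median of 8 to 35 tags per peak limit these results to large differences, and host values of 0 to 3 tags make the size of the largest ones uncertain. Scaling to total tags moved the median of all peaks by 0.14 on the log2 scale in the LPS comparison and by -0.14 for the LPS response of CD45.2 cells, and of all genes by 0.13 and -0.11, and the interaction of all peaks by 0.10. Of the 4 untreated and 2 LPS peaks called at 4-fold, a mean count of at least 20 left 1 and 1, since the others were then not tested. With the replicate block the LPS count was 1, and without single libraries it ran from 1 to 2. At an adjusted p under 0.05, the 10 untreated peaks became 16 with edgeR and 6 with total tags, and ran from 7 to 10 without single libraries. The 3 LPS peaks became 6 with edgeR and ran from 1 to 3, lowest without either library of replicate 2. The LPS-responsive peaks numbered 4 in CD45.1 and 5 in CD45.2 cells, 1 and 2 at 80% reciprocal overlap, where few member peaks were left, and 8 in CD45.2 cells at 1 bp of overlap, an alternative chosen after seeing the data. Without single libraries the CD45.2 count ran from 4 to 7. The 3 untreated genes became 0 with total tags and ran from 2 to 3. The 0 genes after LPS became 1 with the Irak4 promoter reassigned, also chosen after seeing the data, and 1 with the strongest peak alone, and ran from 0 to 2, highest without the CD45.2 library of replicate 1. Genes that rose after LPS in CD45.1 cells, 2, became 4 with edgeR, 1 with total tags and 1 with the strongest peak alone, and ran from 2 to 5, highest without the CD45.1 LPS library of replicate 1. Those in CD45.2 cells, 4, became 0 with total tags, 2 at 80% overlap, 2 with the width offset and 1 with the strongest peak alone, and ran from 2 to 4, lowest without the CD45.2 library of replicate 2, 5 or 6. The 3 untreated pathway genes became 0 with total tags and 1 with the strongest peak alone, where Tlr2 turned to -0.014, and ran from 3 to 5, highest without the CD45.1 library of replicate 5. The single LPS pathway gene became 2 with edgeR, and 0 with the replicate block or the strongest peak alone, and ran from 0 to 1, at 0 without either library of replicate 2 or 3. The interaction stayed at 0 peaks and 0 genes under every alternative run, replicate block included. The samples share a replicate number and no stated mouse, and deviations of same-numbered libraries correlated at 0.081, 0.082 and 0.087 untreated and -0.066, 0.061 and 0.149 after LPS. Under the block the adjusted p passed 0.05 for the untreated Cd14 sum (0.0647), the Cd14 peak at 10.9 kb (0.079), the Ly96 promoter (0.0518), the Irak2 peak at 22.1 kb (0.101), the LPS Irak3 intron 8 peak (0.112) and the LPS Tlr4 sum (0.166), and for the LPS distal Ly96 peak it was 0.0243. No other call changed. Where no construction of the alternative shows it, the cause was not tested.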
